A study of Mus musculus with 6 samples.

Results

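The 9 genes described here mark conventional and plasmacytoid dendritic cells and were chosen by name from the table of 17987 genes: *Clec9a*, *Xcr1*, *Flt3*, *Zbtb46*, *Batf3*, *Siglech*, *Ccr9*, *Cd209a* and *Fscn1*. Of these, 8 have a row in the table, and the expression of *Batf3* was not analysed here. The libraries came from lung tumor specimens of C57BL/6J mice in which Scgb1a1-rtTA, a driver active in airway secretory cells, turned on TetO-Egfr L858R in the lung epithelium when doxycycline was given (0.5 g/liter for 10 weeks). All 6 mice carried the Egfr transgenes and received doxycycline, so the groups differed by label in Usp24 alone. The Usp24 WT group holds libraries Dox_WT_1354, Dox_WT_1364 and Dox_WT_1370, and the Usp24 C1695A group holds libraries Dox_KO_134, Dox_KO_145 and Dox_KO_164. C1695A replaces the catalytic cysteine of this deubiquitinase by alanine. The headers of the table call the mutant columns KO, although the change is a point mutation made by CRISPR/Cas9. The edit was made in the mouse line itself and the methods describe no conditional Usp24 allele, although they call the crossed mice lung-specific. Neither the age nor the sex of the mice is in the labels, nothing in them says whether a specimen held 1 or several tumors, and p-values measure the spread between these libraries.

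Dendritic cells take up antigen and carry it to lymph nodes, where they prime T cells. Conventional dendritic cells fall into type 1 (cDC1), which present antigen of dead tumor cells to CD8+ T cells, and type 2 (cDC2), which mainly prime CD4+ T cells, whereas plasmacytoid dendritic cells release type I interferon. All depend on the cytokine FLT3 ligand, and mature cells of the conventional types switch on a shared program of migration.

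The values are normalized counts, that is reads per gene divided by 1 size factor per library. The libraries held between 7167000 and 14650273 reads in the table. In such bulk tissue, fewer cells of a type and less RNA per cell cannot be told apart. The libraries differed in more than dendritic cell genes. Summed B cell markers (8 of 8 genes in the table) were between 166 and 235 in Usp24 WT libraries and 175 in library Dox_KO_134, but 9122 in library Dox_KO_145 and 3540 in library Dox_KO_164. Summed T cell markers (9 of 9) were between 153 and 267 in Usp24 WT libraries and were 168, 1867 and 533 in libraries Dox_KO_134, Dox_KO_145 and Dox_KO_164. *Glycam1*, a gene of lymph node vessels, was at 0 in all Usp24 WT libraries and in library Dox_KO_134 and at 235 and 27.7 in libraries Dox_KO_145 and Dox_KO_164. Its list of lymph node stroma markers (3 of 6 in the table) was split. *Cxcl13* was at 55.1, 41.7 and 10.3 in Usp24 WT and 13.2, 3090 and 2635 in Usp24 C1695A libraries. *Ccl21a* was at 140, 135 and 82.7 in Usp24 WT and 74.0, 266 and 21.8 in Usp24 C1695A libraries, lowest in library Dox_KO_164. In library Dox_KO_164 mitochondrial genes held 17.2% of the counts, against 1.74% to 3.10% in the other 5. Adipose markers (4 of 4) summed to 12262 there, to 609 in Dox_KO_145 and to at most 21.6 in Usp24 WT libraries. Markers of lung epithelium (5 of 5) summed to 168360 in library Dox_KO_164 against at least 329670 in the other 5. Of these markers *Scgb1a1* alone was highest in library Dox_KO_164, at 77426 against 19267 to 37778 in Usp24 WT libraries. *Sftpc*, *Sftpb*, *Epcam* and *Nkx2-1* were lowest there. Heart muscle markers (4 of 4) summed to between 110 and 173 in Usp24 WT libraries and to 731, 359 and 4979 in Dox_KO_134, Dox_KO_145 and Dox_KO_164. Y-linked genes (3 of 4) were at 0 in Usp24 WT libraries Dox_WT_1364 and Dox_WT_1370 and present in the other 4, so the sexes were uneven between the groups. The part of these differences in the values below was not tested, except that the fold changes of the 8 genes and the medians of the 5 dendritic cell lists were recomputed without each library and with a Y-linked covariate.

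All 8 dendritic cell genes had a higher mean log2 value in Usp24 C1695A libraries than in Usp24 WT libraries, with a median log2 fold change of 0.93. Over the 16640 tested genes the median was -0.02 and 48.3% were above 0. In 3 of the 8 genes, *Clec9a*, *Flt3* and *Siglech*, every Usp24 C1695A library lay above every Usp24 WT library, which held for 5.07% of all tested genes, and in 0 of the 8 did every Usp24 C1695A library lie below (6.03% of tested genes). The same 3 genes had an unadjusted p under 0.05 by limma, against 2.61% of tested genes in this direction. None of the 8 passed the threshold after Benjamini-Hochberg adjustment over all genes, by limma (0% of genes called in either direction) or by edgeR's quasi-likelihood test (0% of genes called, with 5 of the 8 higher at an unadjusted p under 0.05 against 4.66% of genes). DESeq2 called 1 of the 8, *Siglech*, where it called 0.185% of genes as higher and 0.0369% as lower. With 3 libraries against 3, the exact permutation test on a single gene cannot go below 0.1. The members were chosen with earlier results of these data known, which the shares over all tested genes do not take into account.

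**Figure D1:**
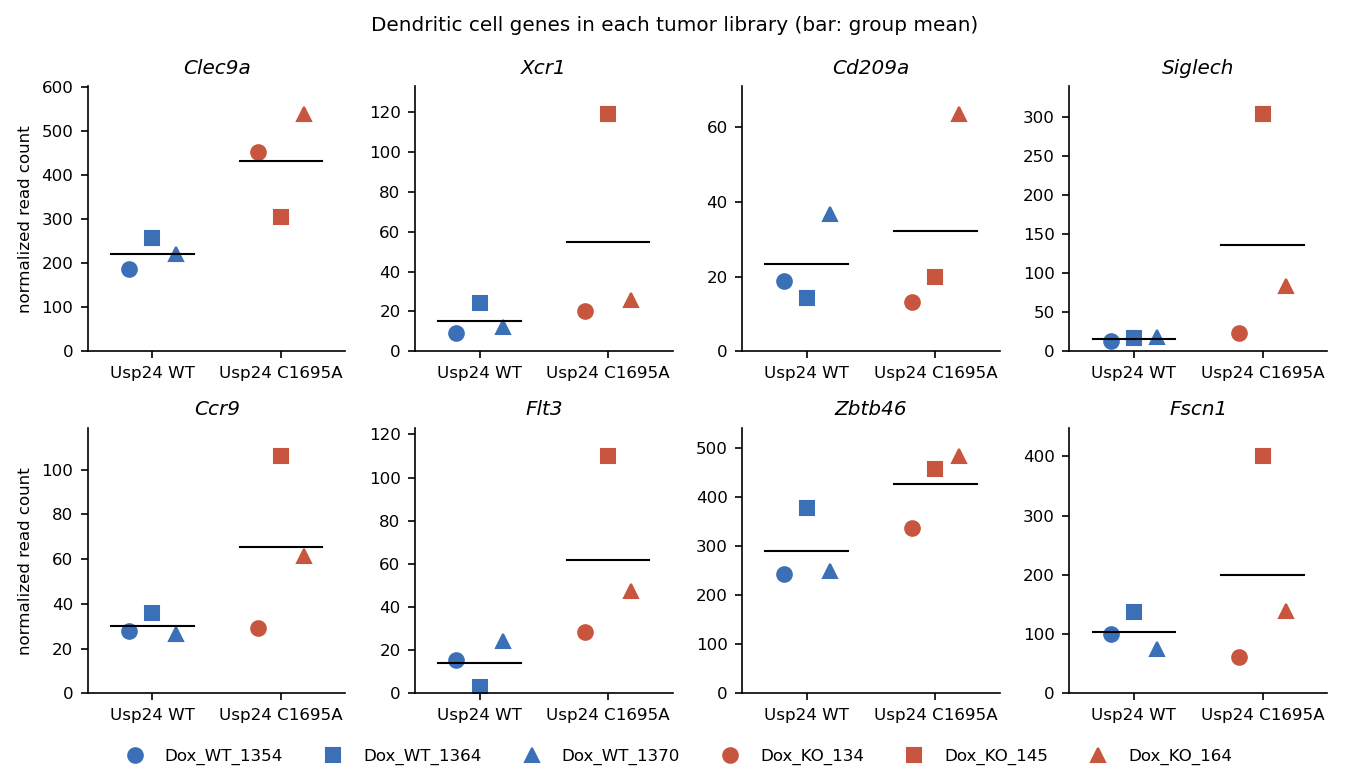
Normalized counts of the 8 dendritic cell genes in each library (linear axis from 0), with Usp24 WT and Usp24 C1695A libraries as separate points and the group means as bars. The groups do not overlap for Clec9a, Flt3 and Siglech, and library Dox_KO_145 holds the highest value of 5 genes.

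**Figure D2:**
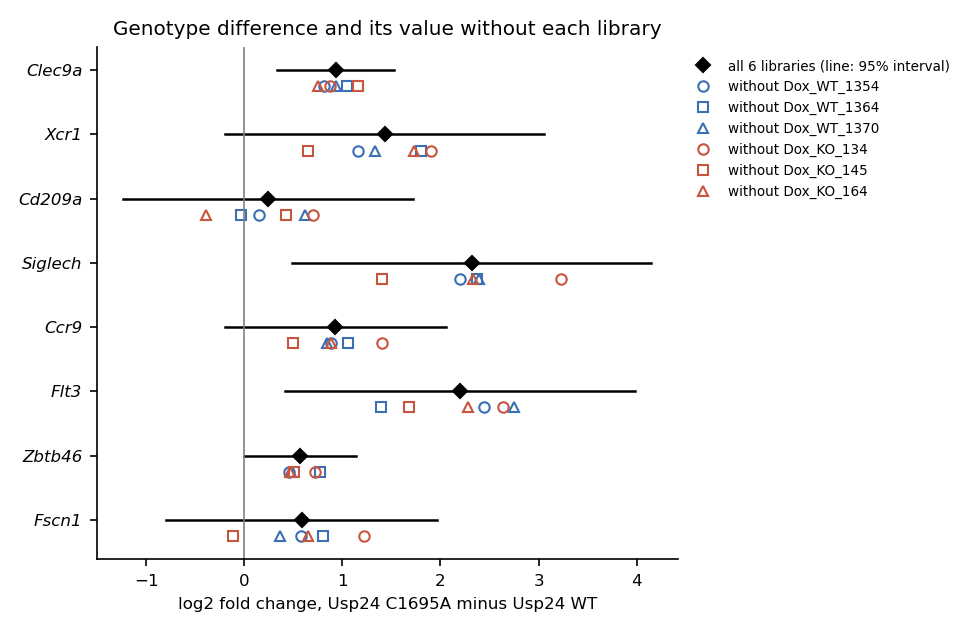
Log2 fold change of each dendritic cell gene (Usp24 C1695A minus Usp24 WT, on log2 of the value + 1) with its 95% confidence interval from limma, and open symbols for the value without each library in turn. All 8 estimates are above 0, and the intervals of Clec9a, Flt3 and Siglech exclude 0 without adjustment for the number of genes.

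Of the cDC1 genes among the 8, *Clec9a* varied less between libraries than *Xcr1*. *Clec9a* encodes DNGR-1, the receptor by which cDC1 sense the exposed actin of dead cells. It was at 188, 258 and 221 in Usp24 WT libraries Dox_WT_1354, Dox_WT_1364 and Dox_WT_1370 and at 453, 306 and 539 in Usp24 C1695A libraries Dox_KO_134, Dox_KO_145 and Dox_KO_164. All Usp24 C1695A libraries were above the highest Usp24 WT library, with library Dox_KO_164 the highest and library Dox_KO_145 the closest to Usp24 WT. The means were 222 ± 34.8 and 432 ± 118 (SD, n = 3 each), and the log2 fold change was 0.93 (SE 0.26, limma adjusted p = 0.738, edgeR adjusted p = 0.696, DESeq2 adjusted p = 0.129). Without library Dox_KO_145 the log2 fold change was 1.16 by limma and 1.17 by DESeq2, which then called the gene (adjusted p = 0.0264). In the annotation of GENCODE M21, 184 of the 3293 exon bases of *Clec9a* overlap exons of *Clec1b*, a platelet receptor gene on the same strand, so a small share of reads could belong to either. *Clec1b* itself was at 124, 281 and 202 in Usp24 WT and 224, 182 and 301 in Usp24 C1695A libraries (log2 fold change 0.27, SE 0.34), with overlapping groups.

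*Xcr1*, the chemokine receptor that draws cDC1 to XCL1 from T and NK cells, followed another order of libraries than *Clec9a*. It was at 9.35, 24.5 and 12.2 in Usp24 WT libraries and at 20.3, 119 and 25.7 in Usp24 C1695A libraries. Library Dox_KO_145 alone was far above the rest, and library Dox_KO_134 lay below Usp24 WT library Dox_WT_1364, so the groups overlapped. The log2 fold change was 1.43 (SE 0.71, limma adjusted p = 0.738) and 0.65 without library Dox_KO_145. These values rest on few reads, 9, 17 and 13 in Usp24 WT and 20, 120 and 13 in Usp24 C1695A libraries. *Batf3*, the third cDC1 gene of the list, encodes the transcription factor without which cDC1 do not form. Its relative *Batf*, used by T and B cells as well, was at 23.9, 18.7 and 38.5 in Usp24 WT and 32.4, 45.5 and 51.5 in Usp24 C1695A libraries (log2 fold change 0.69, SE 0.42). A further relative, *Batf2*, had a log2 fold change below 0 (-0.18, SE 0.60). *Batf2* was at 5.19, 13.0 and 14.1 in Usp24 WT and 9.12, 11.9 and 5.94 in Usp24 C1695A libraries.

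The single cDC2 gene, *Cd209a*, a C-type lectin of the DC-SIGN family, was the member with the smallest difference. It was at 18.7, 14.4 and 36.7 in Usp24 WT libraries and at 13.2, 19.8 and 63.4 in Usp24 C1695A libraries. Library Dox_KO_164 was the highest and library Dox_KO_134 the lowest of all 6. The log2 fold change was 0.24 (SE 0.65, 95% confidence interval -1.23 to 1.72, limma adjusted p = 0.927) and its sign turned to -0.39 without library Dox_KO_164.

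Of the plasmacytoid genes, *Siglech* showed the largest log2 fold change of the 8 with all libraries, while that of *Flt3* was larger without Dox_WT_1354, Dox_WT_1370 or Dox_KO_145. Siglec-H is a surface lectin of mouse plasmacytoid dendritic cells. It was at 13.5, 17.3 and 17.9 in Usp24 WT libraries and at 23.3, 303 and 83.2 in Usp24 C1695A libraries. These are 13, 12 and 19 reads in Usp24 WT and 23, 306 and 42 reads in Usp24 C1695A libraries. The Usp24 WT libraries lay close together and all Usp24 C1695A libraries were above them, by 1.44 times the Usp24 WT mean in library Dox_KO_134, 18.7 times in library Dox_KO_145 and 5.13 times in library Dox_KO_164. The log2 fold change was 2.32 (SE 0.80, limma adjusted p = 0.738, edgeR adjusted p = 0.696) and, by DESeq2 on recovered reads, 3.11 (SE 0.76, adjusted p = 0.0368). The DESeq2 call was lost without library Dox_KO_164 (3.37, adjusted p = 0.0567), and without library Dox_KO_145 DESeq2 gave an estimate of 1.71 and, through its own filter, no adjusted p. Libraries Dox_KO_145 and Dox_KO_164 are those with high B cell sums, and the part of these in the *Siglech* difference was not tested.

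*Ccr9*, a homing receptor of plasmacytoid dendritic cells and of gut-directed T cells, was at 28.0, 36.0 and 26.3 in Usp24 WT libraries and at 29.4, 106 and 61.4 in Usp24 C1695A libraries. Library Dox_KO_134 was within the Usp24 WT range, and libraries Dox_KO_145 and Dox_KO_164 were above it. The log2 fold change was 0.93 (SE 0.49, limma adjusted p = 0.738) and 0.50 without library Dox_KO_145. In the annotation 1932 of its 10260 exon bases lie across from an antisense transcript and 269 overlap *Gm17200* on its own strand, and the sources used here do not say whether reads were counted by strand.

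Of the genes shared by several dendritic cell types, *Flt3* had separate groups and *Zbtb46* did not. *Flt3*, the receptor for FLT3 ligand on dendritic cells and their progenitors, was at 15.6, 2.88 and 24.4 in Usp24 WT libraries and at 28.4, 110 and 47.5 in Usp24 C1695A libraries. The groups did not overlap, although library Dox_KO_134 exceeded library Dox_WT_1370 by little, and the value of library Dox_WT_1364 is that of 2 reads. The log2 fold change was 2.20 (SE 0.78, limma adjusted p = 0.738, DESeq2 adjusted p = 0.272), 1.40 without library Dox_WT_1364 and 1.68 without library Dox_KO_145. *Zbtb46*, a transcription factor of conventional dendritic cells that endothelial cells also express, was at 243, 379 and 250 in Usp24 WT libraries and at 338, 458 and 483 in Usp24 C1695A libraries. Only Usp24 WT library Dox_WT_1364 overlapped the Usp24 C1695A values, and the log2 fold change was 0.56 (SE 0.25, limma adjusted p = 0.738). Endothelial markers (4 of 4) summed to between 9232 and 11941 in Usp24 WT libraries and to 9371, 9791 and 17787 in libraries Dox_KO_134, Dox_KO_145 and Dox_KO_164, and their part in the *Zbtb46* values was not tested.

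*Fscn1* encodes fascin, an actin-bundling protein of mature dendritic cells that epithelial tumor cells can express as well. It was at 99.7, 137 and 74.3 in Usp24 WT libraries and at 61.8, 400 and 139 in Usp24 C1695A libraries. Library Dox_KO_145 was the highest and library Dox_KO_134 the lowest of all 6, and the groups overlapped. The log2 fold change was 0.58 (SE 0.61, limma adjusted p = 0.815) and -0.12 without library Dox_KO_145.

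The promoter sequences of the 3 genes whose groups did not overlap are shown, a choice made by that outcome. All 8 genes had a log2 fold change above 0, so direction does not set these 3 apart, and shared regulation was not tested. Each sequence is the 250 bases before the RefSeq start on GRCm38.p6, with E-box matches (CANNTG) in capitals. 
Clec9a, chr6:129408612-129408861 (+ strand): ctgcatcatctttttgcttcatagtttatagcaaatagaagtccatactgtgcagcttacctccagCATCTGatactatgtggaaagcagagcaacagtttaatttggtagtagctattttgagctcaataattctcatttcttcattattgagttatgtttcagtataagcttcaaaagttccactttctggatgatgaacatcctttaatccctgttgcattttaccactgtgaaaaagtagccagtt
Flt3, chr5:147400490-147400739 (- strand): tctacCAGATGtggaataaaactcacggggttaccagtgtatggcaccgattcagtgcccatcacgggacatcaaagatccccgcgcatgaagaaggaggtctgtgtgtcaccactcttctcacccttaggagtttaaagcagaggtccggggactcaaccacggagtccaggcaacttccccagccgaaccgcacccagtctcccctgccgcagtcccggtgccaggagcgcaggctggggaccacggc
Siglech, chr7:55767934-55768183 (+ strand): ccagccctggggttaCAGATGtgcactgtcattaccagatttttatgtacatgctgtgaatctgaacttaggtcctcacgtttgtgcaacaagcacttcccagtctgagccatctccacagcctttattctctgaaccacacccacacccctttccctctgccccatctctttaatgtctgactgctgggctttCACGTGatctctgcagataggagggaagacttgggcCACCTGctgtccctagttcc
E-boxes are bound by basic helix-loop-helix proteins such as E2-2 (*Tcf4*), the master regulator of plasmacytoid dendritic cells. Both strands were searched, and the window holds 1 E-box in *Clec9a*, 1 in *Flt3* and 3 in *Siglech*. Of the 9 listed genes, 8 held at least 1, where 66.2% of 32851 promoters of this length did. The PU.1 motif GAGGAAG was found in *Batf3* alone (10.6% of promoters), the AP-1 motif TGANTCA in *Zbtb46* alone (6.7%) and the interferon regulatory factor motif GAAANNGAAA in 0 of the 9 (3.0%). A match is a run of letters and no evidence of binding.

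The libraries of the Usp24 C1695A group did not contribute alike. Library Dox_KO_145 was above every Usp24 WT library in 7 of the 8 genes (20.6% of tested genes) and library Dox_KO_164 in 8 of 8 (33.5%). Library Dox_KO_134 was above in 3 (23% of tested genes), and its *Cd209a* and *Fscn1* values were below every Usp24 WT library. The highest value of all 6 libraries was in library Dox_KO_145 for *Xcr1*, *Flt3*, *Siglech*, *Ccr9* and *Fscn1*, where 10.1% of tested genes had it, and in library Dox_KO_164 for *Clec9a*, *Zbtb46* and *Cd209a*, where 27.9% had it. Neither a Usp24 WT library nor library Dox_KO_134 (highest in 13.1% of tested genes) held the highest value of any of the 8 genes. Leaving out library Dox_KO_145 lowered the median log2 fold change of the 8 genes to 0.58, with 7 of 8 above 0 (49% of genes). In that fit 1 of 8, *Clec9a*, had an unadjusted p under 0.05 by limma (3.09% of genes). Leaving out library Dox_KO_134 raised it to 1.31, with 7 of 8 at an unadjusted p under 0.05 (5.67% of genes). Without library Dox_WT_1364, 6 of the 8 genes had separate groups (16.4% of genes), *Xcr1*, *Zbtb46* and *Ccr9* besides the former 3.

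**Figure D3:**
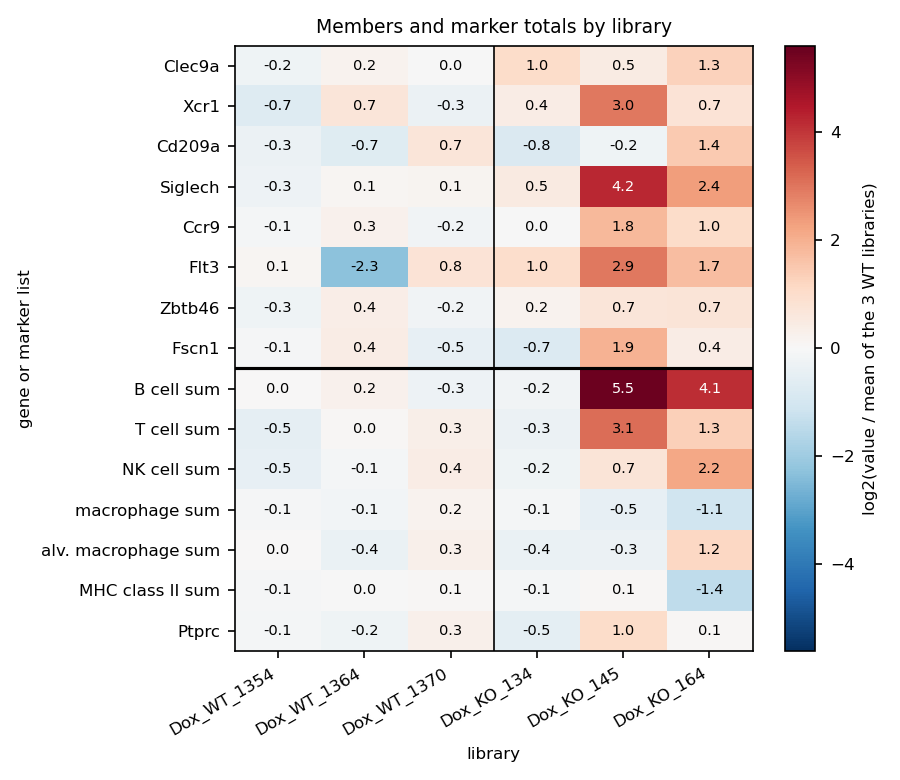
Heat map of each dendritic cell gene and of summed marker lists in each library, as log2 of the value relative to the mean of the Usp24 WT libraries (color scale in log2 units). Siglech, Xcr1, Flt3, Ccr9 and Fscn1 are highest in library Dox_KO_145, which also holds the highest B cell and T cell sums. In library Dox_KO_164 Fabp4 holds 59523.5 of the alveolar macrophage sum of 61741, so this sum does not stand for its other markers. Chil3 (1358), Ear2 (410) and Siglecf (156) are there the lowest of all libraries. Marco (275) is there within the Usp24 WT range and Krt79 (17.8) is highest.

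Because *Ptprc* (CD45), the common leukocyte gene, itself ranged from 1494 in library Dox_KO_134 to 4417 in library Dox_KO_145, the 8 genes were also expressed per 1000 counts of *Ptprc*. *Flt3* was then at 7.82, 1.58 and 9.19 in Usp24 WT and 19.0, 24.9 and 21.2 in Usp24 C1695A libraries. *Siglech* was at 6.77, 9.51 and 6.71 in Usp24 WT and 15.6, 68.5 and 37.1 in Usp24 C1695A libraries. On this scale 2 of the 8 genes, *Flt3* and *Siglech*, had separate groups, against 0.992% of all tested genes. The Usp24 C1695A values of *Flt3* lay close together, while those of *Siglech* still differed several-fold. *Clec9a* became 94.3, 142 and 83.0 in Usp24 WT and 303, 69.2 and 240 in Usp24 C1695A libraries, so that library Dox_KO_145 fell below all Usp24 WT libraries and the groups overlapped. *Xcr1* became 4.69, 13.5 and 4.59 in Usp24 WT and 13.6, 26.9 and 11.5 in Usp24 C1695A libraries, overlapping by library Dox_KO_164 alone. The log2 fold changes relative to *Ptprc* were 1.99 for *Flt3*, 2.11 for *Siglech* and 0.72 for *Clec9a*, with a limma adjusted p of 0.967 for *Siglech* and higher for the others.

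**Figure D4:**
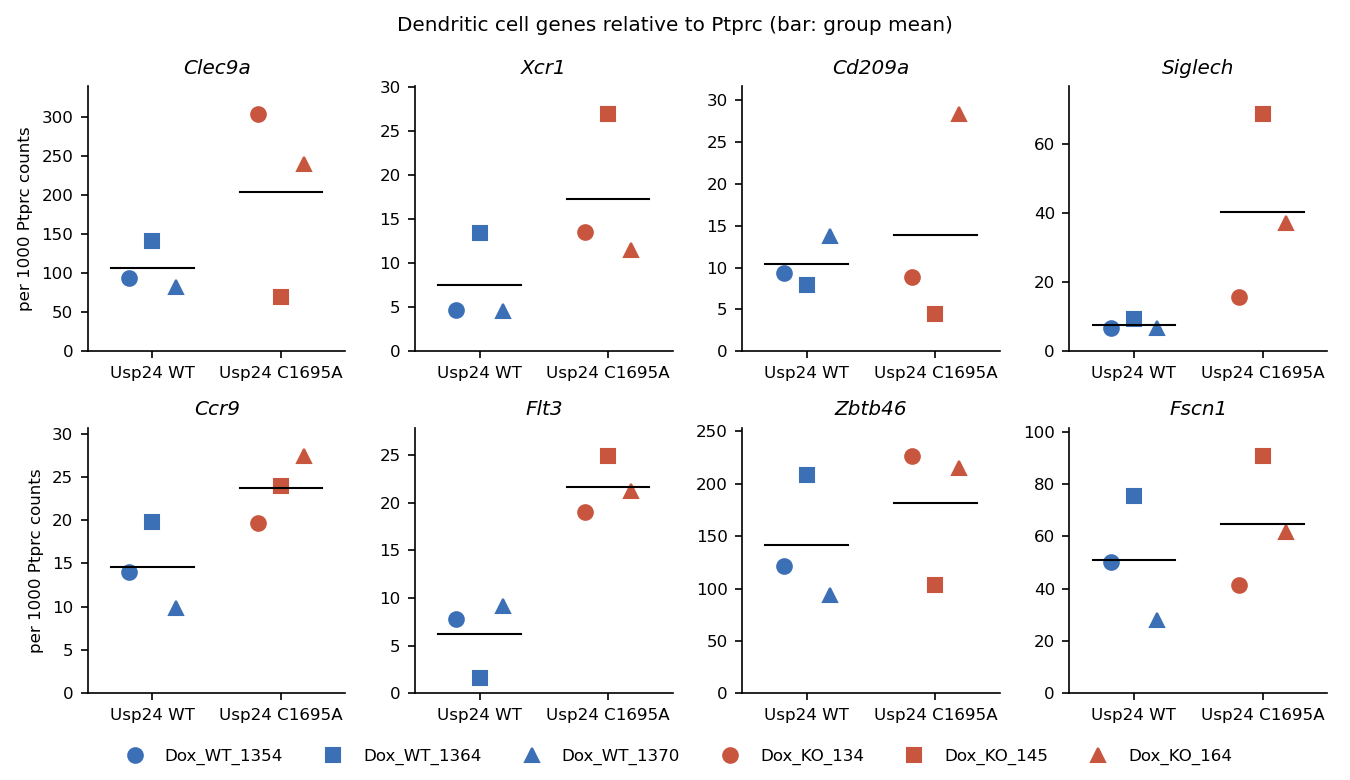
The 8 dendritic cell genes per 1000 normalized counts of Ptprc in each library, on a linear axis from 0 with bars at group means. Flt3 and Siglech keep the Usp24 C1695A libraries above all Usp24 WT libraries, and Clec9a in library Dox_KO_145 falls to 69.2, below the Usp24 WT libraries.

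Per kilobase of exon, the Usp24 WT medians put *Clec9a* first at 67.1 normalized counts, followed by *Fscn1* at 33.1 and *Zbtb46* at 29.4. The Usp24 WT ranges of *Fscn1* (24.7 to 45.4) and *Zbtb46* (28.6 to 44.5) overlapped, and *Clec9a* (57.1 to 78.2) was above both. *Cd209a* followed at 11.8, *Siglech* at 5.11, *Xcr1* at 2.74, *Ccr9* at 2.73 and *Flt3* at 2.52, and the Usp24 WT ranges of *Xcr1*, *Ccr9* and *Flt3* overlapped. Those of *Siglech* (lowest 3.99) and *Xcr1* (highest 5.50) overlapped as well. The 2 cDC1 receptors thus differed widely in level. In Usp24 C1695A libraries the median of *Siglech* was 24.6 and that of *Clec9a* 138. Over the 6 libraries, the mean-centered log2 profiles of *Ccr9* and *Fscn1* were the closest of all member pairs (root mean square difference 0.35), with *Clec9a* and *Zbtb46* next (0.37), whereas *Clec9a* and *Xcr1* differed by 1.07.

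By the same measure over all tested genes, the profile of *Xcr1* was closest to *Trbc1* (0.28), *Skap1* (0.29) and *Slamf1* (0.30). *Trbc1*, a T cell receptor constant region, was at 13.5, 25.9 and 16.9 in Usp24 WT and 27.4, 201 and 51.5 in Usp24 C1695A libraries. *Siglech* was closest to *Tbc1d10c* (0.32), *Cd37* (0.34) and *Il21r* (0.38). *Cd37*, a tetraspanin abundant on B cells, was at 34.3, 63.3 and 37.6 in Usp24 WT and 59.8, 811 and 345 in Usp24 C1695A libraries. *Ccr9* was closest to *Ly86* (0.12), *Cd40* (0.14) and *Kif21b* (0.14), and *Fscn1* to *Trpm2* (0.10), *Rgs14* (0.19) and *Serpina3g* (0.25). *Clec9a* was closest to *4930579G24Rik* (0.10), *Ufsp1* (0.11) and *Fbxl13* (0.15), *Zbtb46* to *Hp* (0.06), *Nudt16* (0.07) and *Rplp2* (0.08), and *Cd209a* to *Acaca* (0.20), *Slc5a6* (0.21) and *Heph* (0.21). *Flt3* had no close match, with *Trnp1* at 0.63 the nearest.

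The 8 genes were then set beside 56 other genes of dendritic cell biology in 5 lists, of which 46 are in the table and 44 were tested. Of these 44, 23 had a log2 fold change above 0 and 21 below, with a median of 0.03. An unadjusted p under 0.05 was reached by 5 higher and 3 lower genes (background 2.61% and 2.93%), and 0 passed adjustment by limma. These other genes were thus split in direction.

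Among the other cDC1 genes, 6 of 10 were above 0. *Irf8*, the transcription factor that sets up cDC1 and is also active in B cells, was at 220, 236 and 197 in Usp24 WT and 308, 838 and 301 in Usp24 C1695A libraries, with no overlap (log2 fold change 0.97, SE 0.38, limma adjusted p = 0.738). *Cadm1*, an adhesion molecule of cDC1 and of lung epithelium, was lower without overlap, at 6732, 7109 and 6874 against 5633, 5444 and 3427 (log2 fold change -0.55).

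Other cDC2 genes were split, 2 of 5 above 0. *Clec10a*, the lectin MGL1 of cDC2 and macrophages, was at 14.5, 8.64 and 2.82 in Usp24 WT and 19.3, 45.5 and 117 in Usp24 C1695A libraries (log2 fold change 2.53, SE 0.77, limma adjusted p = 0.738). *Sirpa*, an inhibitory receptor of cDC2 and macrophages, was at 3265, 2874 and 3907 in Usp24 WT and 2641, 2533 and 1263 in Usp24 C1695A libraries, lower with no overlap (log2 fold change -0.71).

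Other plasmacytoid genes were above 0 in 4 of 6. *Tlr7*, a receptor for single-stranded RNA that macrophages and B cells also carry, was at 276, 289 and 530 in Usp24 WT and 227, 200 and 178 in Usp24 C1695A libraries, lower with no overlap (log2 fold change -0.79). *Spib*, a transcription factor of plasmacytoid dendritic cells and B cells, did not pass the filter, and was at 6.23, 4.32 and 6.58 in Usp24 WT, 3.04 in library Dox_KO_134, 378 in library Dox_KO_145 and 129 in library Dox_KO_164.

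In the mature and migratory list 7 of 13 other genes were above 0. *Ccr7*, the receptor that guides mature dendritic cells and T cells to lymph nodes, was at 10.4, 17.3 and 7.52 in Usp24 WT and 26.4, 158 and 29.7 in Usp24 C1695A libraries, with no overlap (log2 fold change 2.08, SE 0.72, limma adjusted p = 0.738).

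Among ligands, receptors and regulators 4 of 10 other genes were above 0. *Flt3l*, the ligand of FLT3, was at 165, 235 and 178 in Usp24 WT and 293, 278 and 267 in Usp24 C1695A libraries (log2 fold change 0.55, SE 0.22, limma adjusted p = 0.738). All Usp24 C1695A libraries lay above all Usp24 WT libraries for this ligand, as for its receptor. *Ccl25*, the ligand of CCR9, had overlapping groups (log2 fold change -0.087, SE 0.26). *Bcl11a*, a transcription factor of plasmacytoid dendritic cells and B cells, was at 7.27, 15.8 and 17.9 in Usp24 WT and 17.2, 381 and 154 in Usp24 C1695A libraries and overlapped by library Dox_KO_134 (log2 fold change 2.90, SE 0.99, DESeq2 adjusted p = 0.0107). *Itgax* (CD11c), carried by dendritic cells and alveolar macrophages, was at 1438, 993 and 1579 in Usp24 WT and 1191, 788 and 378 in Usp24 C1695A libraries (log2 fold change -0.89, limma adjusted p = 0.738).

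The antigen presentation genes of MHC class II, which dendritic cells share with macrophages, B cells and lung epithelium, had a median log2 fold change of -0.42, with 1 of 8 tested genes above 0. Their sum was between 31875 and 34408 in Usp24 WT libraries and was 31027, 34567 and 12469 in libraries Dox_KO_134, Dox_KO_145 and Dox_KO_164, so library Dox_KO_164 stood apart.

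**Figure D5:**
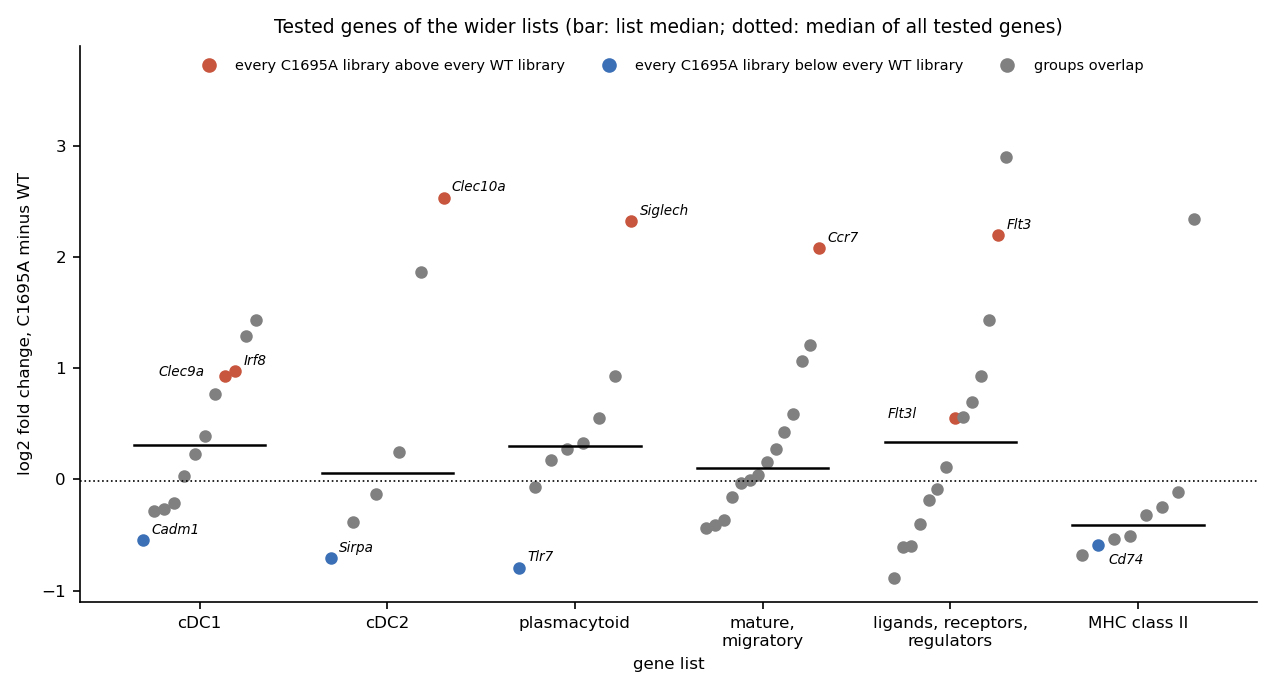
Log2 fold change (Usp24 C1695A minus Usp24 WT) of each tested gene in 5 dendritic cell lists, members included, and in MHC class II. Bars are list medians, the dotted line is the median of all tested genes, and colored points are genes whose groups do not overlap, of which Clec9a, Irf8, Clec10a, Siglech, Ccr7, Flt3 and Flt3l lie above 0 and Cadm1, Sirpa, Tlr7 and Cd74 below.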

How the data were processed

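Total RNA (3 μg) of lung tumor specimens was sequenced as 150-bp paired reads, with 1 library per sample and 3 per genotype. The authors deposited 1 table of signal values, made by scaling the reads of each gene with a single size factor for each library. HISAT2 2.1.0 and mm39 appear in the submitters' processing notes, while the read counter, annotation and gene filter are not given in the sources used here. Whole reads were recovered from the steps between values (107922 of 107922 values whole within 1e-06, 100% of the table). The step of library Dox_KO_145 is close to 1, so its recovery rests on the residuals.

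Testing was done with limma-trend (3.58.1, R 4.3.3) on log2(value + 1) for the 16640 genes that reached 10 in 3 or more of the 6 libraries, and p-values were adjusted by Benjamini-Hochberg with a threshold of 0.05. A log2 fold change is on this scale and understates differences of low genes. All 8 members in the table passed this filter, and each had at least 1 Usp24 WT library at 10 or more. edgeR (4.0.16) and DESeq2 (1.42.0, 386 genes without an adjusted p) were run on the recovered reads and called 0 genes and 30 higher with 6 lower genes. Single genes were compared by two-sided exact permutation tests. Signs of shared sequence were searched with BLAST (2.17.0), and figures were drawn with matplotlib (3.10.9). Tests were run on simulated data beforehand. The annotation at hand is GRCm38, so no gene coordinates of mm39 are given. The promoter table of RefSeq matched 9 of 9 members.

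The members and the lists were chosen with earlier results of these data known. Genes named were the 9 members, up to 4 genes with the lowest p in each list, of which a part is described, the 3 genes closest to each member in profile, and reference markers. *Spib*, *Batf*, *Clec1b*, *Glycam1*, *Ccl25*, *Cd209b*, *Cd209d*, *Cd209f*, *Cd74* and the Siglec genes other than *Siglech* fall outside this rule and were chosen after their values were seen. Alternatives changed the pseudocount, filter, normalization, tool, covariate and libraries. Counts of members without each library were added after seeing the data.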

Additional observations from a re-analysis of the deposited data

How the results depend on the processing

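By limma and edgeR 0 of 16640 genes passed the adjusted threshold, with 434 higher and 488 lower at an unadjusted p under 0.05 by limma. DESeq2 called 30 higher and 6 lower, and 70 and 7 on every gene of the table, an alternative chosen after seeing the data. Counts of higher genes without a single library were between 0 and 100, and of lower genes between 0 and 35. The highest are from DESeq2 without library Dox_KO_145, which with DESeq2 without library Dox_KO_164 (5 higher and 2 lower) was also chosen after seeing the data, and limma called 5 without library Dox_WT_1354 and 40 without library Dox_KO_134. Of the members, *Siglech* was called by DESeq2 (3.11, and 3.10 on every gene, adjusted p = 0.0263), and *Clec9a* by DESeq2 without library Dox_KO_145 (1.17). The sign turned for *Cd209a* without library Dox_WT_1364 (-0.03) and without library Dox_KO_164 (-0.39, and -0.48 by DESeq2), and for *Fscn1* without library Dox_KO_145 (-0.12, and -0.044 by DESeq2). The cause was not tested. Without single libraries *Cd209a* was at most 0.70 and *Fscn1* at most 1.22, both without library Dox_KO_134. The other 6 members were above 0 under every alternative: *Clec9a* from 0.72 to 1.17, *Siglech* from 1.40 to 3.37, *Flt3* from 1.39 to 2.75, *Xcr1* from 0.61 to 2.23, *Ccr9* from 0.50 to 1.40 and *Zbtb46* from 0.36 to 0.79. A covariate of Y-linked genes gave 1.16 (SE 0.39) for *Clec9a*, 1.71 (SE 1.15) for *Flt3* and 2.56 (SE 1.19) for *Siglech*. The unadjusted limma p was then 0.0191, 0.177 and 0.0649, so of these genes only *Clec9a* stayed under 0.05. A mean of at least 50 moved the median of the cDC1 list from 0.31 to 0.027, of the cDC2 list from 0.055 to -0.26 and of the ligands, receptors and regulators from 0.33 to -0.087, and left out *Xcr1*, *Flt3*, *Ccr9* and *Cd209a*. No paired analysis was possible because the groups share no replicate numbers. Depth limits *Xcr1*, *Siglech*, *Flt3*, *Ccr9* and *Cd209a*, with at most 17, 19, 26, 28 and 39 reads in a Usp24 WT library.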

Other observations

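Relatives of *Siglech* and *Cd209a*, outside the lists, differed among themselves. *Siglecg*, a Siglec of B cells, was at 10.4, 4.32 and 4.70 in Usp24 WT libraries and at 14.2, 583 and 232 in Usp24 C1695A libraries Dox_KO_134, Dox_KO_145 and Dox_KO_164 (log2 fold change 4.18, SE 1.17, limma adjusted p = 0.738). *Siglech* in the same libraries was at 23.3, 303 and 83.2. Other Siglec genes had log2 fold changes below 0, -0.75 (SE 0.70) for *Siglec1*, -0.75 (SE 0.47) for *Siglece* and -0.54 (SE 0.33) for *Siglecf*, and the lowest *Siglec1* and *Siglecf* values of all 6 libraries were in Dox_KO_164, at 53.5 and 156. *Cd209b*, a lectin of lymphoid tissue macrophages in the mouse, was at 4.16, 5.76 and 19.7 in Usp24 WT and 7.10, 356 and 65.3 in Usp24 C1695A libraries (log2 fold change 2.68, SE 1.23), with overlapping groups. *Cd209d* was at 0 in all Usp24 WT libraries and in library Dox_KO_134 and at 12.9 and 37.6 in libraries Dox_KO_145 and Dox_KO_164. *Cd209f* was at 1.04, 2.88 and 0 in Usp24 WT and 3.04, 6.93 and 59.4 in Usp24 C1695A libraries, with no overlap. That separation lies near the floor, as 1 read equals 1.44 in library Dox_WT_1364 and 1.01 in library Dox_KO_134. Of all tested genes, 5.07% were separate in this direction. *Cd209d* and *Cd209f* did not pass the filter. *Cd209a* itself was at 19.8 in library Dox_KO_145, within the Usp24 WT range, so the members of this family did not follow each other there.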
